A study of Mus musculus with 12 samples.

Results

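The genes described here are those for the nuclear-encoded subunits of the mitochondrial respiratory chain and of ATP synthase, measured in mouse liver. They were chosen by symbol, as all listed symbols of the Nduf, Sdh, Uqcr, Cox4 to Cox8 and Atp5 families that follow the naming of subunits. No measured value entered this rule, although earlier results of these data were known when the choice was made. Of the 24062 symbols listed, 81 matched: 36 of complex I, 4 of complex II, 8 of complex III, 16 of complex IV and 17 of complex V. The livers came from 14-week-old male mice on a mixed 129SvEV-C57BL/6 background with floxed alleles of Nr5a2, which encodes the nuclear receptor LRH-1. Mice labelled knockout carried in addition Cre recombinase, brought in with AAV8, an adeno-associated virus vector, and mice labelled control were floxed mice that received AAV8-eGFP according to the series. Every group therefore carried the floxed alleles and a vector. The promoter that drove Cre is not given in the sources used here. Standard diet (SD) was given to 3 controls and 3 knockouts, and the high-fat diet D12492 (HFD) to 4 controls and 2 knockouts, for 6 weeks in each case.

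The respiratory chain, in the inner mitochondrial membrane, passes electrons from food to oxygen. Complex I takes electrons from NADH and complex II from succinate, complex III hands them from ubiquinol to cytochrome c, and complex IV gives them to oxygen. Complexes I, III and IV pump protons, and complex V, the ATP synthase, lets the protons flow back through a ring of c subunits to make ATP. Liver burns fatty acids through this chain and is rich in mitochondria. Most subunits are encoded in the nucleus, and many of these genes are short, strongly expressed, and have left processed pseudogenes, which are copies of their messenger RNA inserted elsewhere in the genome.

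The SD libraries held 2371167 to 3404570 counts each and the HFD ones 7463792 to 10875478, so that diet and depth, with whatever else was shared by the libraries of a diet, cannot be told apart. Nr5a2 itself was not lower in the libraries labelled knockout (94.7 to 100.1 CPM against 74.8 to 85.8 on SD, 69.1 and 84.5 against 64.3 to 77.0 on HFD), and whole-gene counts do not show whether floxed exons were lost, so directions below rest on the labels. CPM here means counts scaled to the size of the library after TMM scaling, as edgeR gives them. On the second principal component, HFD control 1 had a value of -3.0. This was lower than in every other HFD control (10.3 to 16.8) and higher than in both HFD knockouts (-22.5 and -18.8). Of these libraries, the closest to it was an HFD control (10.3). Values without HFD control 1 are given beside some of the results. The 10 hepatocyte markers summed to at least 140000 CPM in every library. The summed level of 7 Kupffer cell and macrophage markers was 157 to 377 CPM over all libraries, and of 6 skeletal muscle markers at most 2.09 CPM, with Acta1, Ckm and Tnnt3 at 0. Some marker sums moved with the genotype: 8 stellate cell and fibroblast markers had 335 to 398 CPM in SD controls and 443 to 519 CPM in SD knockouts, and 5 cholangiocyte markers had 50.6 to 53.9 and 64.7 to 197 CPM, with none of the tested genes of either list called. Their part in the results was not tested. In whole liver, fewer cells of a type and less RNA per cell cannot be told apart.

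Many members have copies elsewhere in the genome with the same or nearly the same coding sequence, and examples are shown first, since the diet results below are set beside them. Untranslated parts were not compared. Each is a stretch of coding sequence of a member beside the same stretch of a copy that lies at another locus, read from GENCODE vM21 transcripts of the GRCm38 build, with capitals at the bases that differ. Atp5g2, on chromosome 15, is a gene for the c ring of ATP synthase, and its coding sequence of 438 bases had 0 differences from Gm10175, on chromosome 7. Bases 1 to 90 are shown.
Atp5g2: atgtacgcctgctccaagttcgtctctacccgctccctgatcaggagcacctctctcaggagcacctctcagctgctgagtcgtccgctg
Gm10175: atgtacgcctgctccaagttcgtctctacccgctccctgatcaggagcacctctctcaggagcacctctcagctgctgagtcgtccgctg
Atp5g1, another c ring gene, differed from Gm10039 at 1 of 408 bases, both on chromosome 11. Bases 296 to 385 hold that base.
Atp5g1: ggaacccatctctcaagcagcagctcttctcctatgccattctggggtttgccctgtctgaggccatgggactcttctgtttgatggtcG
Gm10039: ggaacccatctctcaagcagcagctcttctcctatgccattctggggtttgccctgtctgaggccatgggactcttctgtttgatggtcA
Cox7c, on chromosome 13, is a small subunit of complex IV, and its 189 coding bases had 0 differences from Gm12338, on chromosome 11. This copy is listed in the count files under its own symbol. Bases 1 to 90 are shown.
Cox7c: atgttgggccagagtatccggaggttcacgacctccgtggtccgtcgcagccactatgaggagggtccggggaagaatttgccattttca
Gm12338: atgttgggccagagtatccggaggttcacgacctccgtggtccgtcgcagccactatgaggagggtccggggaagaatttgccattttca
Ndufs5, on chromosome 4, is an accessory subunit of complex I, and it differed at 2 of 318 bases from BC002163, on chromosome 16, which is also listed under its own symbol. Bases 16 to 105 are shown.
Ndufs5: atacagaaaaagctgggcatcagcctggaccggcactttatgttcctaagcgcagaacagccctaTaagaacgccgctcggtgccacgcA
BC002163: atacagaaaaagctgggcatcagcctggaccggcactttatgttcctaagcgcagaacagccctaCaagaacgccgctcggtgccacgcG
Cox6c, a complex IV gene on chromosome 15, had a copy with 7 differences in 228 bases from Cox6c2 on chromosome 12. Bases 1 to 90 are shown.
Cox6c: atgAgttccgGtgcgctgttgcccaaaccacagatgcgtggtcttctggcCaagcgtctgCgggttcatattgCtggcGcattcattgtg
Cox6c2: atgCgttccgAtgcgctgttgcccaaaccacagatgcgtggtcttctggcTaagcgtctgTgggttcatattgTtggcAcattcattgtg

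Each member was then given the share of its coding 50-base words that also occur, on either strand, in a transcript annotated at another locus. By this measure 44 of the 80 members that could be searched had no shared word and no pseudogene copy (at least 200 aligned bases at 90% identity), 22 had some, and 14 shared 40% or more. The threshold of 40% was set after the values had been seen, so the classes serve as a description. The member just above it was Ndufs3, at 47.8%, and the one just below was Uqcr11, at 33.6%. The class of 40% or more held Atp5g1, Atp5g2, Atp5l, Atp5h and Atp5f1 of complex V, Cox7c, Cox5b, Cox7a2l and Cox6c of complex IV, Uqcrb of complex III, and Ndufb4, Ndufs3, Ndufa12 and Ndufs5 of complex I. All 4 members of complex II had no copy.

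Of the 81 members, 74 passed the filter on low counts and were tested among 12015 genes. Atp5g2 passed it through HFD libraries alone. The other 7 were Ndufs5, Cox7b2 and Cox8c, listed at 0 in all libraries, and Cox6a2, Cox8b, Cox6b2 and Cox7a1, with 1, 2, 7 and 18 counts over all 12 libraries. A count of 0 over a whole group allows a level of up to 0.360 CPM (controls) or 0.358 CPM (knockouts) on SD, and of up to 0.0845 or 0.186 CPM on HFD, for counting error only.

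The liver forms of the isoform pairs carried the counts. Cox6a2, Cox7a1 and Cox8b are the heart and skeletal muscle forms of complex IV subunits, and Cox6b2, Cox7b2 and Cox8c are forms known from testis. Their partners had levels of 113 to 176 CPM (Cox6a1), 46.3 to 71.0 CPM (Cox6b1), 112 to 160 CPM (Cox7b) and 51.1 to 95.2 CPM (Cox8a) over the 12 libraries. Cox7a2, the form present in liver, had 40.1 to 63.8 CPM, and Cox7a1 at most 0.497 CPM in any library.

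The respiratory chain genes showed no change that passed the test in knockout livers on SD. Of 74 members tested, 0 were called by edgeR's quasi-likelihood test with Benjamini-Hochberg adjusted p under 0.05, where 4.38% of all genes tested were called (1.44% higher and 2.94% lower). DESeq2 also called 0, and 8 members had an unadjusted p under 0.05. The log2 fold change was above 0 in 22 members and below 0 in 52, with a median of -0.07 against 0 over all genes. Scaling by library size alone shifts the median of all genes to 0.09, and 41 members are then above 0 and 33 below. The 95% interval of the change lay within 1.5-fold in either direction for 49 members and within 2-fold for 72, all but Atp5g2 and Atp5sl.

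On SD the members of smallest p came from different complexes. Sdhb, the iron-sulfur subunit of complex II, had 82.8, 105 and 83.9 CPM in controls and 78.3, 60.0 and 62.0 CPM in knockouts. The groups did not overlap, and the log2 fold change was -0.43 (SE 0.14, edgeR adjusted p = 0.0957). Cox6b1, a complex IV subunit on the side facing cytochrome c, had 51.5, 67.1 and 65.6 CPM in controls and 47.3, 47.6 and 46.3 CPM in knockouts (-0.39, SE 0.13, edgeR adjusted p = 0.107). Here too every control lay above every knockout. Cox7b, another small complex IV subunit, had 132, 152 and 130 CPM against 115, 116 and 112 CPM (-0.27, SE 0.10, edgeR adjusted p = 0.171). Atp5h, the d subunit in the stalk of ATP synthase, had 28.5, 39.8 and 29.6 CPM against 29.0, 18.8 and 19.9 CPM, with overlap (-0.52, SE 0.19, edgeR adjusted p = 0.146). Knockouts lay above all controls for 4 members, among them Ndufs1, Atp5j and Atp5s, and below all controls for 11, where 10.3% and 12.3% of all genes did. Single libraries decide the absence of calls. Without SD control 1, Cox6b1 was called (-0.49, edgeR adjusted p = 0.0369), and without SD knockout 1, Sdhb (-0.57, adjusted p = 0.0457) and Atp5h (-0.75, adjusted p = 0.0409) were called, all lower.

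On HFD the chain again gave 0 calls of 74, with 2.70% of all genes called (1.04% higher and 1.66% lower), 0 calls by DESeq2 and 5 members with an unadjusted p under 0.05. Values were above 0 in 38 members and below in 36, with a median of 0.01 against -0.01 over all genes. The interval lay within 1.5-fold for 64 members and within 2-fold for 73. Ndufa13, a complex I subunit also known as GRIM-19, had 40.8, 39.4, 38.0 and 43.9 CPM in controls and 54.8 and 53.9 CPM in knockouts. The groups were apart, at a log2 fold change of 0.42 (SE 0.13, edgeR adjusted p = 0.105). Uqcrc1, a core subunit of complex III, had 61.0, 68.2, 60.9 and 64.9 CPM against 77.0 and 79.3 CPM (0.30, SE 0.11, edgeR adjusted p = 0.214). Atp5b, the catalytic beta subunit of ATP synthase, had 2278, 2358, 2352 and 2401 CPM against 2955 and 2584 CPM (0.24, SE 0.11, edgeR adjusted p = 0.314). Knockouts lay above all controls for 10 members and below all for 3, where 10.3% and 11.9% of all genes did.

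Averaged over both diets, 1 of 74 members was called, against 8.36% of all genes (3.00% higher and 5.36% lower). It was Atp5sl, lower by 1.63-fold (log2 fold change -0.70, SE 0.19, edgeR adjusted p = 0.0328). Its symbol follows the ATP synthase naming, but its product is known as an assembly protein of complex I, not as a subunit. Atp5sl had 9.76, 12.1 and 20.8 CPM in SD controls and 10.7, 8.81 and 9.40 CPM in SD knockouts. On HFD it had 11.98, 19.1, 15.2 and 19.6 CPM in controls and 8.75 and 9.71 CPM in knockouts. The groups overlapped on SD and were apart on HFD. The call is fragile: the adjusted p was 0.0743 with the replicate number as a block and 0.105 with all libraries thinned to the smallest, and the call was lost without SD control 3, SD knockout 2, SD knockout 3, HFD control 2, HFD control 4, HFD knockout 1 or HFD knockout 2. Without HFD control 1, 3 members were called (Atp5sl, Atp5h and Ndufv2), and on HFD alone Atp5sl passed (-0.95, SE 0.23, adjusted p = 0.0286). The next members by p were Ndufa6 (-0.31, SE 0.10, edgeR adjusted p = 0.0641), Ndufa13 (0.28, SE 0.09, adjusted p = 0.0787) and Atp5h (-0.35, SE 0.12, adjusted p = 0.0981). The interval of this average lay within 1.5-fold for 70 of 74 members.

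No member passed the test of a difference in knockout effect between the diets. The test of that difference called 0 of 74 members and 0% of the 12015 genes by edgeR, and DESeq2 called 0 members, while 2 members had an unadjusted p under 0.05. These were Cox7b (difference 0.37, SE 0.14, adjusted p = 0.578) and Atp5s (-0.68, SE 0.32, adjusted p = 0.652), the latter known as a coupling factor and not as a stoichiometric subunit. Sdhb (0.38, SE 0.19, adjusted p = 0.706) and Cox6b1 (0.32, SE 0.17, adjusted p = 0.731) followed. This difference was less precise than either knockout effect, with an interval within 1.5-fold for 31 members and within 2-fold for 67.

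**Figure D1:**
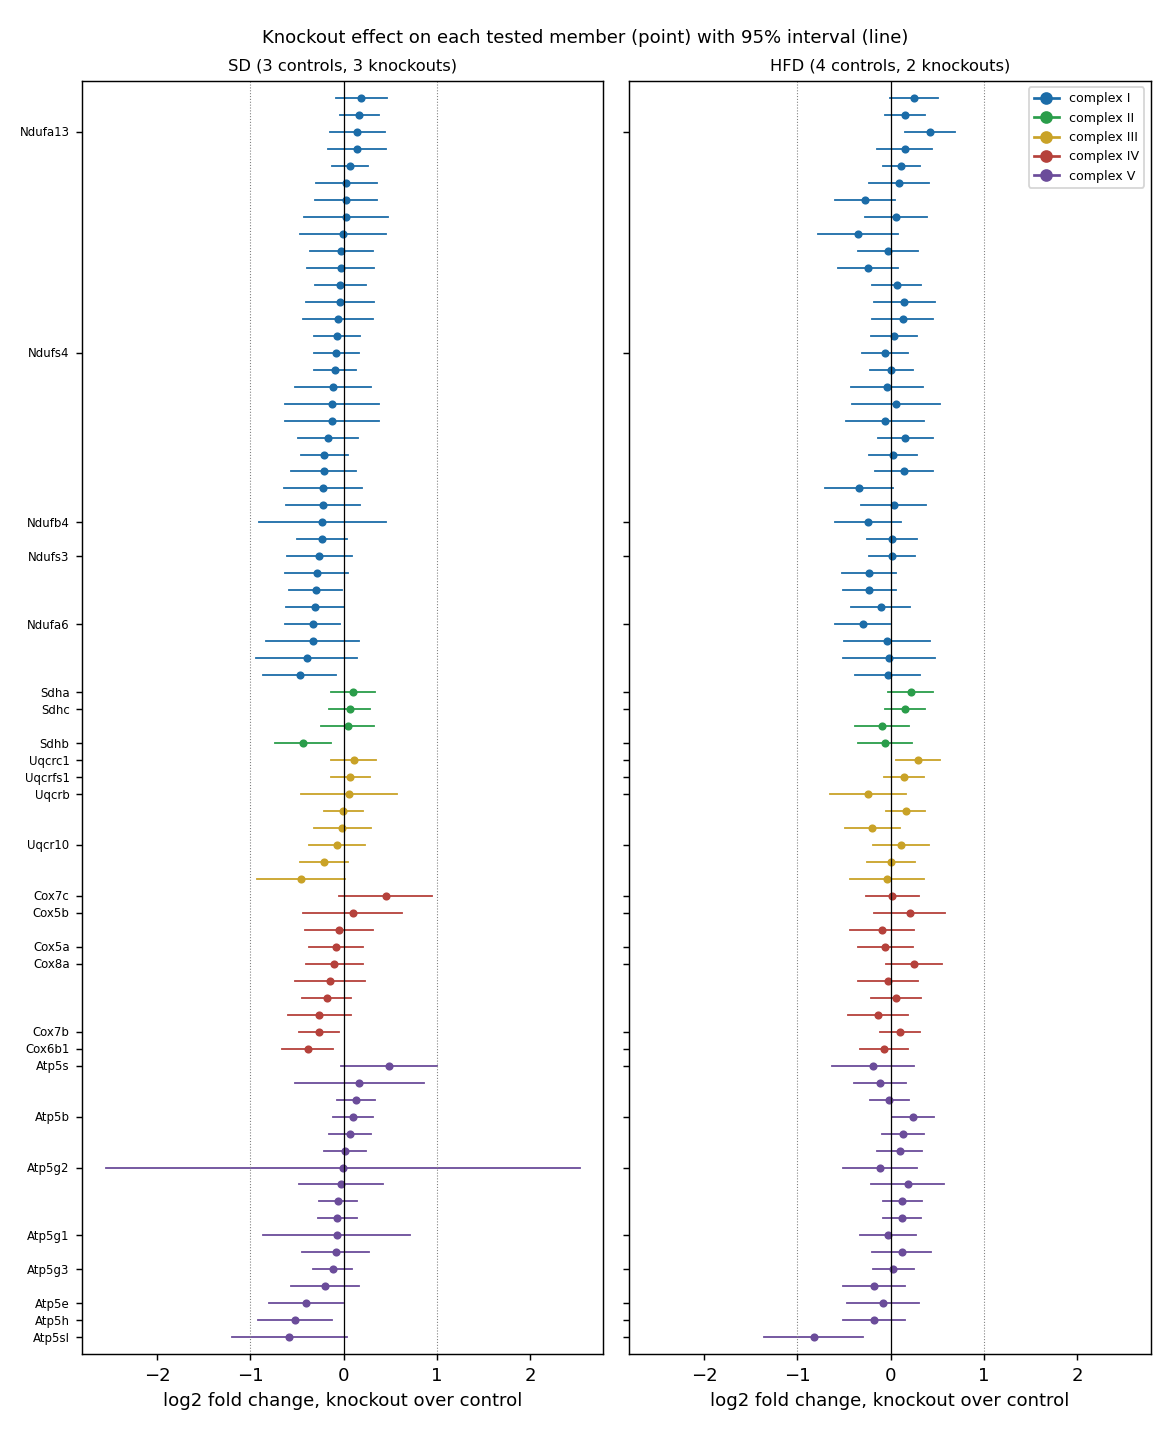
Log2 fold change of knockout over control for each of the 74 tested members on SD (left) and HFD (right), as points with 95% intervals as lines, coloured by complex and ordered within it by the value on SD, with dotted lines at 2-fold and names beside some of the members. Most intervals cross 0, the widest is that of Atp5g2 on SD, and no member passed an adjusted p of 0.05.

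Summed by complex, the counts gave a like picture for complexes I, III and IV, whereas complexes II and V were apart on HFD. Complex I summed to 1994 ± 173 CPM in SD controls (SD, n = 3) and 1862 ± 102 CPM in SD knockouts (n = 3), and to 1894 ± 142 CPM in HFD controls (n = 4) and 1910 ± 34.7 CPM in HFD knockouts (n = 2). Complex III summed to 769 ± 47.8 and 761 ± 17.7 CPM on SD, and to 667 ± 29.2 and 710 ± 18.8 CPM on HFD, in the same order. Complex IV summed to 740 ± 106 and 659 ± 9.26 CPM on SD and to 817 ± 71.3 and 831 ± 70.7 CPM on HFD. Knockouts and controls overlapped on SD in all of these sums. They also overlapped on SD for complex II (1315 to 1588 CPM in knockouts, 1332 to 1387 CPM in controls). For complex V the SD ranges were 4191 to 4574 CPM in knockouts and 4148 to 4530 CPM in controls. The 10 hepatocyte markers were also apart on HFD, at 140000 to 148000 CPM in controls and at least 158000 CPM in knockouts, as were the 7 endothelial markers, at 216 to 256 CPM in controls and 265 to 273 CPM in knockouts, and their part in this was not tested. For complexes II and V both HFD knockouts lay above all 4 HFD controls. Complex II had 1294 and 1326 CPM against 1132 to 1249 CPM, and complex V had 5207 and 5634 CPM against 4598 to 5141 CPM. Single genes weighed heavily in these sums. Sdha had a mean of 876.8 CPM in HFD knockouts and 754.8 CPM in HFD controls, and Atp5b had 2770 and 2347 CPM. On HFD the log2 fold change of knockouts was above 0 in 2 of 4 members of complex II and 8 of 17 of complex V. All members together took 0.855% to 1.02% of the counts of a library.

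**Figure D2:**
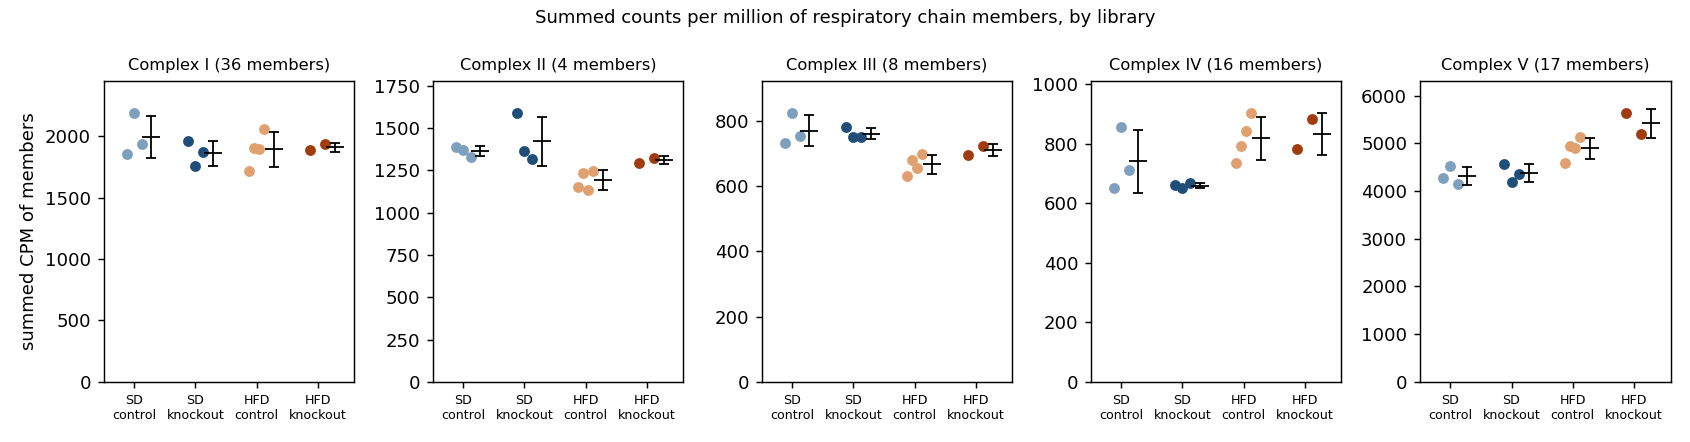
Summed CPM of the members of each complex, with 1 point per library in the 4 groups, and the mean with its standard deviation beside the points. Complex V was higher on HFD (4598 to 5634 CPM) than on SD (4148 to 4574 CPM), without overlap. As a percentage of the counts of a library, without TMM scaling, the diets overlapped (0.4659% in HFD control 1 and 0.4718% in SD knockout 3). In controls, the mean of Atp5b alone was 1747 CPM on SD and 2347 CPM on HFD. Atp5g1, a member with copies, had means of 2.891 and 106.2 CPM. Atp5a1 (1138 and 969.5 CPM) and Atp5g3 (568.3 and 339.5 CPM) had lower means on HFD.

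Between the diets, the members moved in both directions and over a wide range. In controls 40 of 74 were called, 20 higher and 20 lower on HFD, where 30.1% of all genes were called (16.5% higher and 13.6% lower). In knockouts 29 were called, 21 higher and 8 lower, where 26.6% of all genes were (14.9% higher and 11.7% lower). All HFD libraries lay above all SD libraries for 19 members and below for 20 in controls (20.5% and 16.7% of all genes), and for 29 and 22 in knockouts (28.2% and 24.5%). These comparisons share no libraries, although both hold the same split in depth. In both, 27 members were called in the same direction, and 0 were called in opposite directions. The 27 are 67.5% of the calls in controls and 93.1% of those in knockouts. These shares were not taken over all genes, so the agreement is not read as particular to the chain. Atp5g2 aside, the log2 fold changes ranged from -0.99 to 5.19 in controls and from -0.97 to 5.23 in knockouts.

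The direction went with the share of coding sequence that has an exact copy elsewhere. Of the 38 tested members without a copy, 3 were higher and 16 lower in HFD controls, with a median log2 fold change of -0.23. Of the 22 with some, 5 were higher and 4 lower, with a median of 0.04. Of the 13 that shared 40% or more, 12 were higher and 0 lower, with a median of 1.94, and the remaining one, Atp5f1, had 0.22 (SE 0.09, edgeR adjusted p = 0.0815). Atp5f1 was called higher without HFD control 1 (0.26, SE 0.09, edgeR adjusted p = 0.0449) and with library size alone (0.23, adjusted p = 0.0459). One of the 12 is Atp5g2, which could be tested through its HFD libraries alone, and without it 11 of 12 were higher, with a median of 1.72. With the replicate block, and with DESeq2, 11 of the 13 were higher, and with any 1 library left out 11 to 13 were. In knockouts the members without a copy gave 3 higher and 7 lower (median -0.16), those with some gave 5 and 1 (0.17), and those with 40% or more gave 13 and 0 (2.05), or 12 of 12 with a median of 1.92 without Atp5g2. Spearman's rho between the share and the log2 fold change, over the 72 members other than Atp5g2, was 0.626 in controls and 0.663 in knockouts, and these members share libraries. With Atp5g2 the values were 0.643 and 0.678. Between knockouts and controls it was -0.0737 on SD and -0.165 on HFD.

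A split in the same direction was present over all genes tested, so it was not seen in the chain alone. Genes can pass the low-count filter through HFD libraries alone, as Atp5g2 did, and these are bound to lean higher on HFD. They were not left out of the shares and counts below, which limits what these show. A pseudogene copy is counted here only from 200 aligned bases, so shorter copies are missed. Of 1603 tested genes with a pseudogene copy by this rule, 42.2% were higher and 7.92% lower in HFD controls, against 12.4% and 14.4% of 9827 genes without one. In knockouts these shares were 39.1% and 7.11% against 11.0% and 12.3%. Cytosolic ribosomal protein genes, a family known for its many processed pseudogenes, were higher on HFD in 64 of 73 tested in controls and lower in 1, with a median of 3.75. Mitochondrial ribosomal protein genes gave 13 higher and 14 lower of 74, with a median of -0.13. With every library thinned to the total of the smallest, the class of 40% or more gave 12 of 13 higher and 0 lower in controls, with a median of 2.11. Atp5g2 is among the 13. Thinning evens the depth alone, and whatever else was shared by the libraries of a diet remains. How reads that map to several places were handled is not given in the sources used here, and the part it had in the diet differences was not tested.

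**Figure D3:**
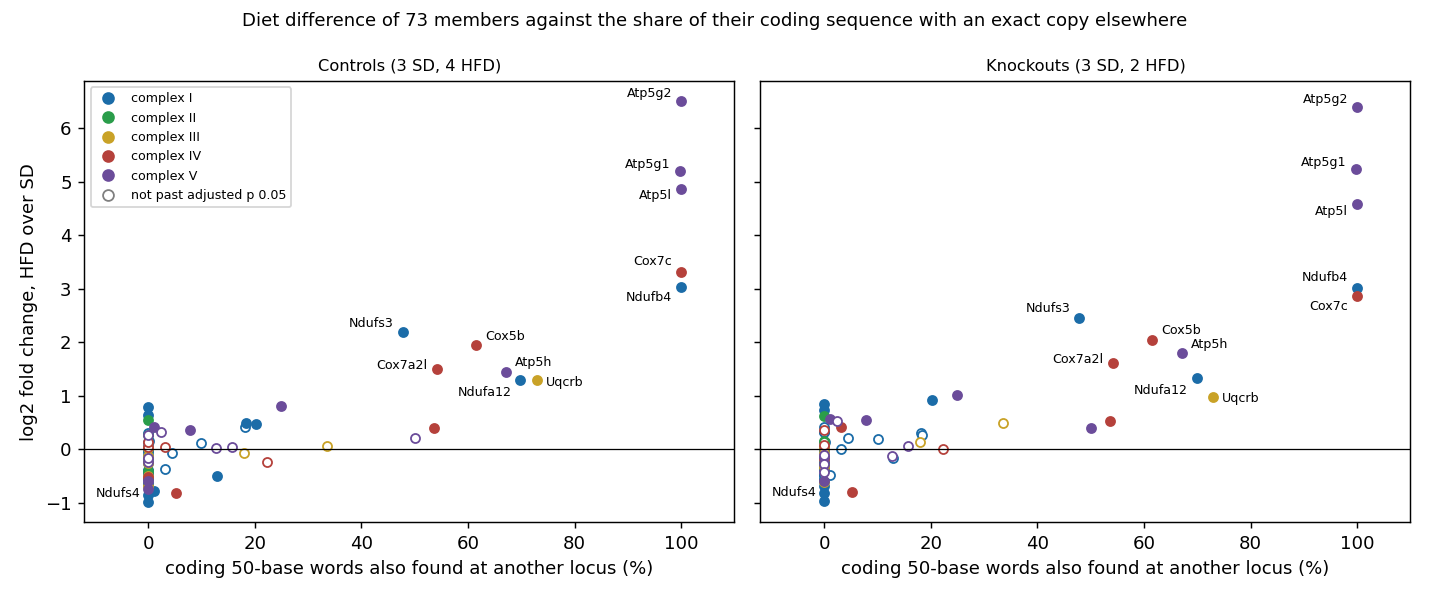
Log2 fold change of HFD over SD for 73 members against the percentage of their coding 50-base words that occur at another locus, in controls (left) and knockouts (right), coloured by complex, with open points for members that did not pass an adjusted p of 0.05. Members at 40% or more lie above 0 in both panels, from 0.22 to 5.19 in controls for those other than Atp5g2, and those with no copy lie between -0.99 and 0.78 in controls. The topmost point is Atp5g2, whose fitted value depends on the prior count.

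The c ring of ATP synthase shows the split within 1 protein. Atp5g1, Atp5g2 and Atp5g3 encode the same mature c subunit behind different import signals. Their last 228 coding bases differed at 35 positions between Atp5g1 and Atp5g2, at 47 between Atp5g1 and Atp5g3 and at 49 between Atp5g2 and Atp5g3. A stretch of 90 bases, ending 109 bases before the end of the coding sequence, shows how far apart they are, with capitals where any of them differs.
Atp5g1: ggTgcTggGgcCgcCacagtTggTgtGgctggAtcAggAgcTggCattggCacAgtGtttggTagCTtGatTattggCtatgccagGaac
Atp5g2: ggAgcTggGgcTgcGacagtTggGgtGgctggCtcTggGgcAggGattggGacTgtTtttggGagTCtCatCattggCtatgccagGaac
Atp5g3: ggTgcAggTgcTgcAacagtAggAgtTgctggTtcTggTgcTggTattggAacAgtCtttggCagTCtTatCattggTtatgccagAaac
Atp5g1, with 4 pseudogene copies, had 3.52, 2.41 and 2.75 CPM in SD controls and 103, 99.3, 105 and 117 CPM in HFD controls. The SD knockouts had 2.33, 1.20 and 4.53 CPM and the HFD knockouts 103.5 and 104.4 CPM. The diet groups lay far apart in both genotypes (log2 fold change 5.19, SE 0.21, edgeR adjusted p = 3.59e-11 in controls).
Atp5g2, also with 4 copies, had 2 counts over the 3 SD controls and 846 over the 4 HFD controls. This is a ratio of 99.2 after scaling (exact 95% interval 27.4 to 820, counting error only), and in knockouts the ratio was 92.9 (25.5 to 770), from 2 and 359 counts.
Atp5g3, for which no copy was found, went the other way. It had 574, 571 and 560 CPM in SD controls against 310, 336, 346 and 367 CPM in HFD controls, and 556, 482 and 536 CPM against 344 and 348 CPM in knockouts. The fall was -0.74 on the log2 scale in controls (SE 0.09, edgeR adjusted p = 1.53e-05) and -0.60 in knockouts (SE 0.11, adjusted p = 0.000913).

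For Cox7c and Ndufs5 the copy is listed beside the gene, and the pair can be read together. Cox7c had 6.25, 6.83 and 4.27 CPM in SD controls and 50.2, 59.1, 57.9 and 58.9 CPM in HFD controls. Its copy Gm12338 had 17.2, 14.9 and 15.6 CPM in SD controls and 1.36, 1.24, 1.60 and 1.43 CPM in HFD controls. The gene was thus higher on HFD and its copy, identical in coding sequence, lower, with no overlap in either. In knockouts the same held, at 6.33 to 8.71 against 52.1 and 62.0 CPM for Cox7c and 9.21 to 13.6 against 1.53 and 1.34 CPM for Gm12338. Ndufs5 was listed at 0 in all 12 libraries, whereas its copy BC002163 had 15 to 30 counts on SD and 3 to 14 on HFD, or 6.00 to 9.67 and 0.417 to 1.82 CPM. The value of 0 for Ndufs5 was not read as absence of this subunit, and the reason for it was not tested.

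**Figure D4:**
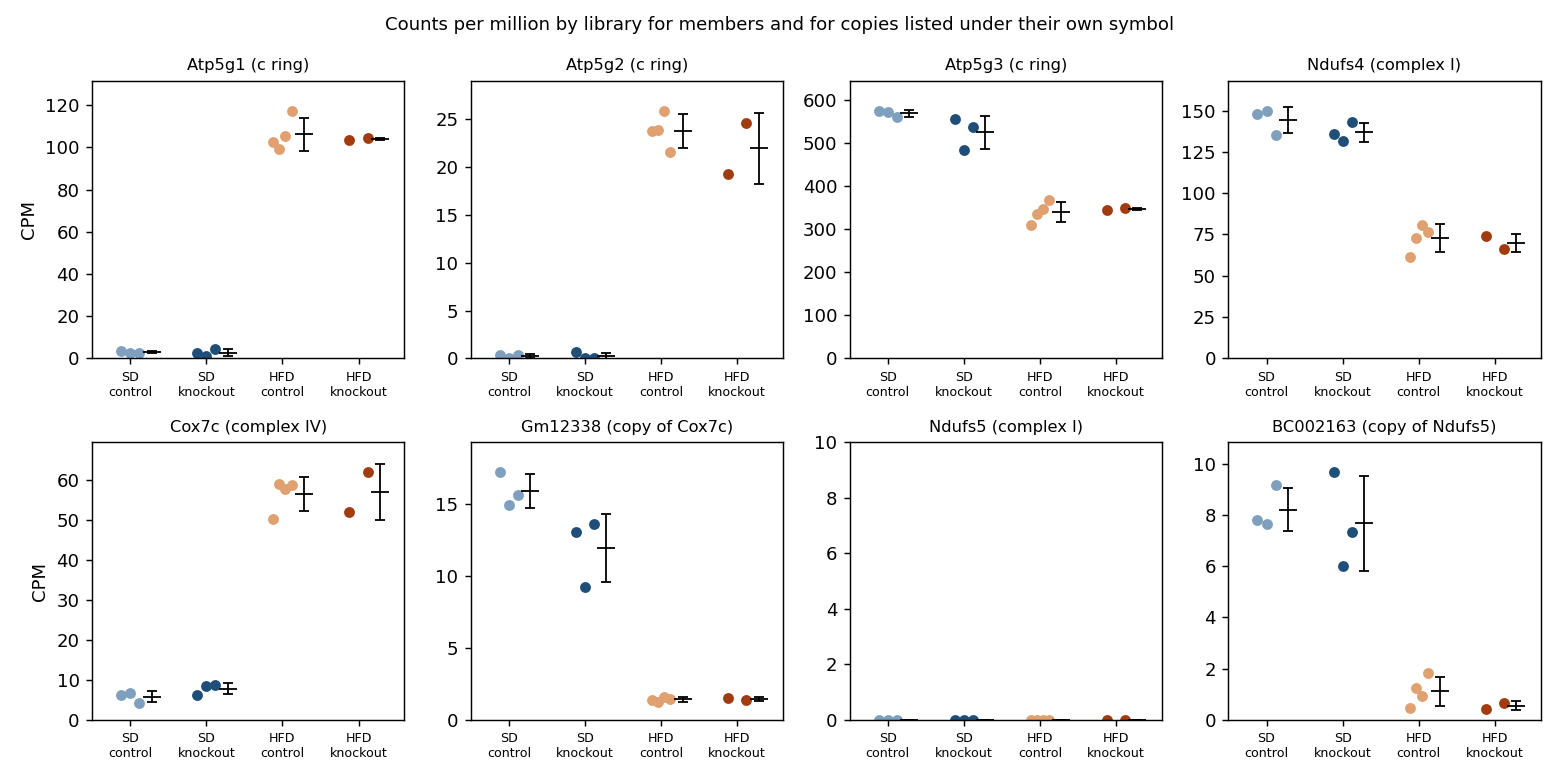
CPM in each library, with the mean and its standard deviation beside the points, for the c ring genes, Ndufs4, Cox7c and Ndufs5, and for the copies of the latter pair. Atp5g1, Atp5g2 and Cox7c were higher in all HFD libraries, and Atp5g3, Ndufs4 and both copies were lower in all HFD libraries. Ndufs5 is at 0 throughout.

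In complex I, 7 of 35 tested members were higher and 13 lower in HFD controls, where 16.5% and 13.6% of all genes were. Among the 21 without a copy, 2 were higher and 10 lower, with a median of -0.38. Ndufs4, an accessory subunit whose loss causes Leigh syndrome, had 148, 150 and 136 CPM in SD controls and 61.2, 72.99, 80.6 and 76.6 CPM in HFD controls. Knockouts gave 136, 132 and 143 against 73.8 and 66.0 CPM, and in both genotypes the diets did not overlap (-0.99, SE 0.10, edgeR adjusted p = 2.81e-06 in controls, and -0.97, SE 0.13, adjusted p = 3.95e-05 in knockouts). Ndufa6, an accessory subunit of the LYR family, fell by 0.85 on the log2 scale in controls (SE 0.12, edgeR adjusted p = 9.42e-05), from 41.5 to 57.5 CPM on SD to 24.9 to 29.1 CPM on HFD. Ndufb9, another LYR protein and the member of highest mean CPM in the complex, was lower in controls (-0.46, SE 0.11, edgeR adjusted p = 0.00431). The 2 rises without a copy were Ndufs8, a core iron-sulfur subunit, at 0.78 (SE 0.14, edgeR adjusted p = 0.00042), and Ndufa9, an accessory subunit, at 0.64 (SE 0.10, adjusted p = 0.000151), named after their values were seen. Ndufs8 had 15.6 to 23.3 CPM over the SD libraries and 32.1 to 45.5 CPM over the HFD libraries, and Ndufa9 had 95.3 to 114 and 147 to 175 CPM. Both were also called higher in knockouts, at 0.84 and 0.74. The largest rises of the complex were Ndufb4, with all of its words shared (3.03, SE 0.22, edgeR adjusted p = 2.73e-08), from 2.44 to 6.25 CPM to 30.7 to 40.6 CPM, and Ndufs3, a core subunit with 47.8% shared (2.18, SE 0.13, adjusted p = 3.23e-09).

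Complex II, which is also an enzyme of the citric acid cycle, has no copies, and its subunits did not move together. Sdha, the flavoprotein subunit that oxidises succinate, had 1044, 976 and 960 CPM in SD controls and 760, 812, 695 and 752 CPM in HFD controls. It fell by 0.40 on the log2 scale (SE 0.10, edgeR adjusted p = 0.00764), and in knockouts the value was -0.28 (SE 0.12, adjusted p = 0.105). Sdhc, a membrane anchor, had 87.1, 90.4 and 81.5 CPM in SD controls and 122, 116, 128 and 137 CPM in HFD controls. It rose by 0.54 in controls (SE 0.09, edgeR adjusted p = 0.000432) and by 0.63 in knockouts (SE 0.11, adjusted p = 0.000517). Sdhd, the other anchor, had 0.27 (SE 0.12, edgeR adjusted p = 0.104), and without HFD control 1 it was called higher (0.37, SE 0.11, adjusted p = 0.0207). Sdhb had -0.23 (SE 0.12, edgeR adjusted p = 0.183) in controls. In knockouts these were 0.14 (SE 0.14) and 0.15 (SE 0.15), neither passing.

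In complex III, 1 of 8 members was higher and 2 were lower in HFD controls, near the 16.5% and 13.6% of all genes for so few members. Uqcrfs1, the Rieske iron-sulfur protein, had 185, 184 and 175 CPM in SD controls and 103, 108, 118 and 124 CPM in HFD controls (-0.68, SE 0.09, edgeR adjusted p = 3.55e-05). It was lower in knockouts as well (-0.61, SE 0.11, adjusted p = 0.000713). Uqcr10, a small accessory subunit, was lower in controls (-0.50, SE 0.13, edgeR adjusted p = 0.00756) and had -0.32 in knockouts (SE 0.15, adjusted p = 0.133), and without SD control 2 the call was lost (-0.29, adjusted p = 0.0681). Uqcrc2, a core subunit and the member of highest mean CPM here, had -0.13 (SE 0.09, adjusted p = 0.284). The rise was that of Uqcrb, a quinone-binding subunit with 72.9% of its words shared (1.29, SE 0.20, edgeR adjusted p = 0.000183). In knockouts it was 0.98 (SE 0.23, adjusted p = 0.0048), and without HFD knockout 2 it was 0.49 (adjusted p = 0.121).

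In complex IV, 4 of 10 tested members were higher and 2 lower in HFD controls, where 16.5% and 13.6% of all genes were. Each of the 4 shared 40% or more. Apart from Cox7c (3.31, SE 0.17, edgeR adjusted p = 7.4e-10) they were Cox5b (1.94, SE 0.20, adjusted p = 2.85e-06), Cox7a2l (1.505, SE 0.15, adjusted p = 2.27e-06) and Cox6c (0.41, SE 0.14, adjusted p = 0.0402). The call of Cox6c was lost with DESeq2 (0.40, adjusted p = 0.0512), with the replicate block (0.33, edgeR adjusted p = 0.113), and without SD control 1, SD control 3, HFD control 2, HFD control 3 or HFD control 4 (edgeR adjusted p from 0.0728 to 0.125). Cox7a2l is known for its part in joining complexes III and IV into supercomplexes. The copy of Cox5b, Gm11273, is annotated as a protein-coding gene. Cox5a, a subunit on the matrix side, had 119, 171 and 146 CPM in SD controls and 71.0, 85.2, 81.7 and 91.4 CPM in HFD controls. It fell by 0.82 (SE 0.12, edgeR adjusted p = 0.000123), and by 0.79 in knockouts (SE 0.15, adjusted p = 0.00114). Cox8a was lower in controls (-0.53, SE 0.13, edgeR adjusted p = 0.00619) and had -0.18 in knockouts (SE 0.15, adjusted p = 0.434), and without SD control 2 the call was lost (-0.35, adjusted p = 0.0569). Cox7b and Cox6a1, the members of highest mean CPM, had 0.04 (SE 0.09) and -0.24 (SE 0.11) in controls and did not pass, although Cox6a1 was called lower without SD control 1 (-0.34, edgeR adjusted p = 0.0405). Ndufa4, named for complex I and known from later work as a subunit of complex IV, was lower in controls (-0.47, SE 0.13, edgeR adjusted p = 0.0143) and had -0.27 in knockouts (SE 0.16, adjusted p = 0.242), and without SD control 2 the call was lost (-0.29, adjusted p = 0.11).

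In complex V, 7 of 17 members were higher and 2 lower in HFD controls, where 16.5% and 13.6% of all genes were. Among the 5 without a copy, 0 were higher and 2 lower by edgeR, Atp5g3 and Atp5e, and DESeq2 called Atp5a1 too. Atp5e, the epsilon subunit of the stalk, had 49.2, 86.8 and 71.7 CPM in SD controls and 37.3, 48.0, 47.3 and 50.3 CPM in HFD controls, with overlap (-0.60, SE 0.16, edgeR adjusted p = 0.0115). Without SD control 2 its call was lost (-0.41, adjusted p = 0.0923). Of the catalytic head, Atp5a1, the alpha subunit, had -0.23 (SE 0.10, edgeR adjusted p = 0.0914), and Atp5b had 1748, 1813 and 1681 CPM in SD controls, below all HFD controls (0.43, SE 0.10, adjusted p = 0.00305). Of the words of Atp5b, 1.04% were shared. Atp5l, the g subunit in the membrane part, had 13 pseudogene copies and rose from 1.56 to 4.18 CPM on SD to 73.5 to 87.9 CPM on HFD (4.87, SE 0.19, edgeR adjusted p = 2.91e-11 in controls).

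Summed by copy status, the members that shared 40% or more had 344 ± 16.1 CPM in SD controls (SD, n = 3) and 936 ± 72.5 CPM in HFD controls (n = 4). The members without a copy had 5437 ± 270 CPM and 4511 ± 273 CPM. In knockouts the first sum was 314 ± 26.7 CPM on SD (n = 3) and 916 ± 55.0 CPM on HFD (n = 2), and the second was 5359 ± 272 CPM and 4772 ± 11.0 CPM. The diets did not overlap in either sum.

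Genes around the chain were read from lists and gave few calls between knockouts and controls. Of the 6 tested subunits and carriers outside the symbol rule, 0 were called in any knockout comparison by edgeR, and 0 had an unadjusted p under 0.05. Between diets, 4 of the 6 were higher in HFD than in SD controls, where 16.5% of all genes were. They were Cycs, which encodes the electron carrier cytochrome c (6.37, SE 0.26), Ndufab1, the acyl carrier protein of complex I (3.82, SE 0.23), Usmg5 (2.19, SE 0.23) and Cox4i1 (1.32, SE 0.11). The words shared with another locus were 100% for Cycs, 99.8% for Ndufab1, 100% for Usmg5 and 0% for Cox4i1. Cyc1, the cytochrome c1 of complex III, also with 0% shared, had 0.21 (SE 0.10, edgeR adjusted p = 0.145). Of 40 tested assembly factors, edgeR called 0 between knockouts and controls on either diet or averaged, with an unadjusted p under 0.05 for 6 on SD, 4 on HFD and 6 averaged. Of all genes tested, 4.38% were called on SD, 2.70% on HFD and 8.36% averaged. In HFD controls, 7 of the 40 assembly factors were higher and 8 lower than in SD controls, where 16.5% and 13.6% of all genes were. Among them were Atpaf1, which helps to build complex V (4.00, SE 0.41), and Tmem70, another factor of complex V (-0.87, SE 0.09). Atpaf1 had only 3, 5 and 0 counts in SD controls and 124 to 169 in HFD controls, so its size of change is uncertain.

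Of 15 tested regulators of mitochondrial biogenesis, 1 was called over both diets, where 8.36% of all genes were. It was Esrrg, an orphan nuclear receptor that acts on oxidative genes. Esrrg was lower in knockouts (log2 fold change -1.10, SE 0.27, edgeR adjusted p = 0.0181), with 16.4, 10.5 and 7.63 CPM in SD controls against 6.33, 4.80 and 2.09 CPM. On HFD it had 6.90, 12.3, 6.41 and 10.3 CPM in controls against 4.72 and 5.13 CPM. Of 17 citric acid cycle genes 1 was called on SD, where 4.38% of all genes were: Suclg2, a subunit of succinyl-CoA ligase (-0.51, SE 0.11, edgeR adjusted p = 0.0157), and it was called over both diets (-0.37, SE 0.08, adjusted p = 0.00753). Suclg2 had 140, 156 and 135 CPM in SD controls against 114, 93.3 and 95.1 CPM in SD knockouts. Of 20 tested electron donors and carriers beside the chain, 1 was called on HFD, where 2.70% of all genes were: the uncoupling protein gene Ucp2, which was higher (0.86, SE 0.20, edgeR adjusted p = 0.0302). Ucp2 had 41.4, 24.2, 37.2 and 24.3 CPM in HFD controls and 65.5 and 50.9 CPM in HFD knockouts. Over both diets 2 of the 20 were called, against the 8.36% of all genes. Etfdh, which feeds electrons from fatty acid oxidation to ubiquinone, was lower (-0.46, SE 0.10, edgeR adjusted p = 0.00649), and Coq7, an enzyme of ubiquinone synthesis, was higher (0.55, SE 0.14, adjusted p = 0.0235).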

How the data were processed

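Each of the 12 libraries came with a deposited table of raw read counts by gene symbol, whole numbers that the authors had not normalized. RNA was total liver RNA, and the kit was Ovation from Nugen, per the labels' protocols. The submitters' processing notes name the build mm9 and list DESeq2 1.14.1, HTSeq and TopHat2 2.1.0. The sources used here do not give the strand setting, the read length or the treatment of reads with several places, so overlapping, antisense and copied genes are uncertain. The labels do not state separate animals in words, so the spread behind every p-value is that between libraries and may be technical.

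Counts were tested in R 4.3.3 with edgeR 4.0.16 (limma 3.58.1): TMM scaling, filterByExpr with a minimum count of 10, 4 group means over all 12 libraries, and Benjamini-Hochberg adjustment over 12015 genes, called at 0.05, two-sided. The common biological coefficient of variation was 0.153. Limits on a count of 0 are 3 counts over a group, and exact intervals are Clopper-Pearson at 95%. The procedure was tested on simulated counts.

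Copies were sought in GENCODE vM21 transcripts (GRCm38) by symbol with blastn 2.17.0 (at least 200 bases, 90% identity, annotated pseudogenes) and by exact 50-base words in transcripts of other loci. By name, 22557 of 24062 symbols and 80 of 81 members were found there, not Atp5sl. Because the files use another build, no coordinates are given.

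Members and lists were chosen with earlier results of these data known. Named by rule were members called between knockouts and controls, or else the 4 of smallest p, the 2 of highest mean CPM per complex, all of complex II, the 2 largest rises and falls per complex between diets, the isoform pairs, and symbols with another known role. An item is not reported here. From the other lists, genes called or of smallest p were named. Alternatives were RLE scaling, library size alone, no filter, DESeq2 1.42.0, only the groups compared, thinning, blocking on the replicate number, leaving out single libraries, and counting members without a copy. Leaving out Atp5g2 from the class of 40% or more was added after the data had been seen.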

Additional observations from a re-analysis of the deposited data

Results flagged for a closer look

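Of 40 values per library checked among the 4 HFD controls, 2 had a library far from the others, where chance flags about 1 in 20. Cox7c had 50.2 CPM in HFD control 1, and the other HFD controls had 57.9 to 59.1 CPM. Ndufs3 had 64.7 CPM in HFD control 1, and the others had 75.5 to 76.3 CPM. In both cases the outlying value is the lowest, and both genes shared 40% or more of their coding words with another locus. The library is the one that lay between the other HFD controls and the HFD knockouts on the second principal component. With about as many flags as chance gives, these shared traits were not read as a pattern. Both members were called higher in HFD controls with and without it.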

How the results depend on the processing

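The number of members called between knockouts and controls on SD was 0 in the report and 0 to 2 with 1 library left out. On HFD it was 1 with no filter on low counts (Atp5sl), and 0 to 1 with 1 library left out. Averaged over both diets, the 1 call became 2 with library size alone (Ndufa13 added) and 2 with DESeq2 (Atp5b added). It became 0 with the replicate block, and 0 to 3 with 1 library left out. Over members without a copy it was 0 by construction, since Atp5sl could not be searched for copies. Thinning left 1 call but exchanged Atp5sl for Uqcrc1. Between diets, the 40 calls in controls became 19 over the 38 members without a copy and 34 to 41 with 1 library left out, and the 29 in knockouts became 10, 26 to 27 with 1 library of the groups compared left out, and 26 to 31 with any library. Fewer members are counted in the first case by construction, and for the other changes the cause was not tested. Without HFD control 1, the diet calls in controls gained Atp5f1, Ndufb3 and Sdhd and lost Ndufa5 and Ndufa8. For the contrast of knockout effects across diets, all alternatives run gave 0 calls. Without 1 HFD knockout, the lone library is assumed to vary like the other groups.

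Replicate numbers correlated at 0.063, 0.0694 and -0.021 on SD and at 0.136 and 0.0207 on HFD, so they were not taken to pair the libraries. With the replicate block, 0 members were called on SD and on HFD, 0 for the difference, 39 between diets in controls and 29 in knockouts. Over the alternatives for single named members, 619 kept direction and side of the threshold, 9 newly passed and 13 no longer passed, and 0 reversed. Depth limits the SD side most: Atp5g2 had at most 2 counts in any SD library, so its size of change is given as a ratio with its interval.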
